A study of Zea mays with 16 samples.

Results

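The genes adh1, sh1 and sus1 are 3 of the 46430 IDs counted in leaf RNA of 4 maize lines. They were chosen by ID as classic cold and low-oxygen responsive genes of maize, with adh1 as Zm00001d033931, sh1 as Zm00001d045042 and sus1 as Zm00001d047253. All 3 were among the 17410 IDs that passed the filter on low counts. The names come with this choice, because neither the count files nor the maize RefSeq gene table pairs a nuclear ID with a symbol, although the table lists all 3 symbols.

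The enzyme encoded by adh1, alcohol dehydrogenase, reduces acetaldehyde to ethanol in the last step of fermentation and so renews the NAD+ that glycolysis needs when oxygen is short. The genes sh1 (shrunken1) and sus1 encode isozymes of sucrose synthase, which splits sucrose with UDP into fructose and UDP-glucose. The sh1 isozyme is best known from the endosperm, where its loss gives the shrunken kernel, and sus1 is expressed more widely in the plant. In maize seedlings short of oxygen, adh1 and sh1 are known for transcripts that accumulate, and sucrose synthase feeds the sugars of sucrose into glycolysis.

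The samples were leaves of the lines B73, M37W, B104 and CML333, each chilled at 4 °C or kept at 26 °C as the control. Every group had days of 14 h at an irradiance of 250 µmol per square metre per second and nights of 10 h, and no mutant, transgene or further agent is named. All 4 are inbreds: B73 is that of the maize reference genome, B104 is much used in transformation, and the other pair were founders of the nested association mapping lines. Each of the 8 groups had 2 libraries of 3′ end reads, given below in the order of replicates 1 and 2. The sources used here do not give the plants' age, the leaf taken, the length of chilling or whether 2 libraries came from separate plants, so p-values measure the spread between these libraries, which may be technical.

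Library totals ran from 1780344 to 2705564 counts. Levels are CPM, the count divided by the library total and multiplied by 1000000. Each transcript gives a read at its 3′ end only, so no scaling by length enters. The sources used here do not say how reads that match several genes were counted, so reads of sh1 and sus1, which are related in sequence, may not be fully separated. They also name no genome build, though the nuclear IDs have the form of gene models of the B73 reference genome. Reads of B73 would then be counted on the genome of their own line, and those of the other lines on that of another. How well the reads of each line match the genome used was not tested. It cannot be told apart from a difference in level between lines.

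Several libraries stood apart. The 2 B104 controls correlated with the other 14 libraries at r = 0.370 to 0.510 across the genes tested, on log2(CPM + 1), whereas those 14 correlated among themselves at 0.649 to 0.970. Plastid IDs took 0.000628% and 0.000416% of counts in the B104 controls, against 0.00532% to 0.0543% in the other 14, mitochondrial IDs took 1.2% and 1.52% against 0.0309% to 0.354%, and ENSRNA IDs (Ensembl noncoding RNA) took 5.03% and 3.69% against 0.0352% to 0.101%. For the chilled libraries labelled CML333 the correlation between replicates was 0.813, the lowest of the 8 groups. Each of these replicates correlated more highly with a library of another group (up to 0.846 and 0.852) than with the other. Whether the B104 controls hold leaf RNA, as labelled, is in doubt on these shares and could not be checked against nuclear markers, since 0 of the 8 mesophyll and bundle sheath markers listed could be paired with a counted ID.

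The B104 controls held by far the highest levels of all 3 genes. For adh1 the level was 53.2 and 94.1 CPM in chilled B104 leaves, against 1630 and 5804 CPM in the B104 controls. For sh1 it was 46.3 and 24.5 CPM in chilled B104 leaves, against 2721 and 6314 CPM in the controls. For sus1 it was 26.4 and 42.4 CPM in chilled B104 leaves, against 332.3 and 2297 CPM in the controls. No chilled library overlapped a control library for any of the 3, as held for 71.1% of all genes tested, and the 2 controls themselves differed widely, with replicate 2 the higher each time.

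**Figure D1:**
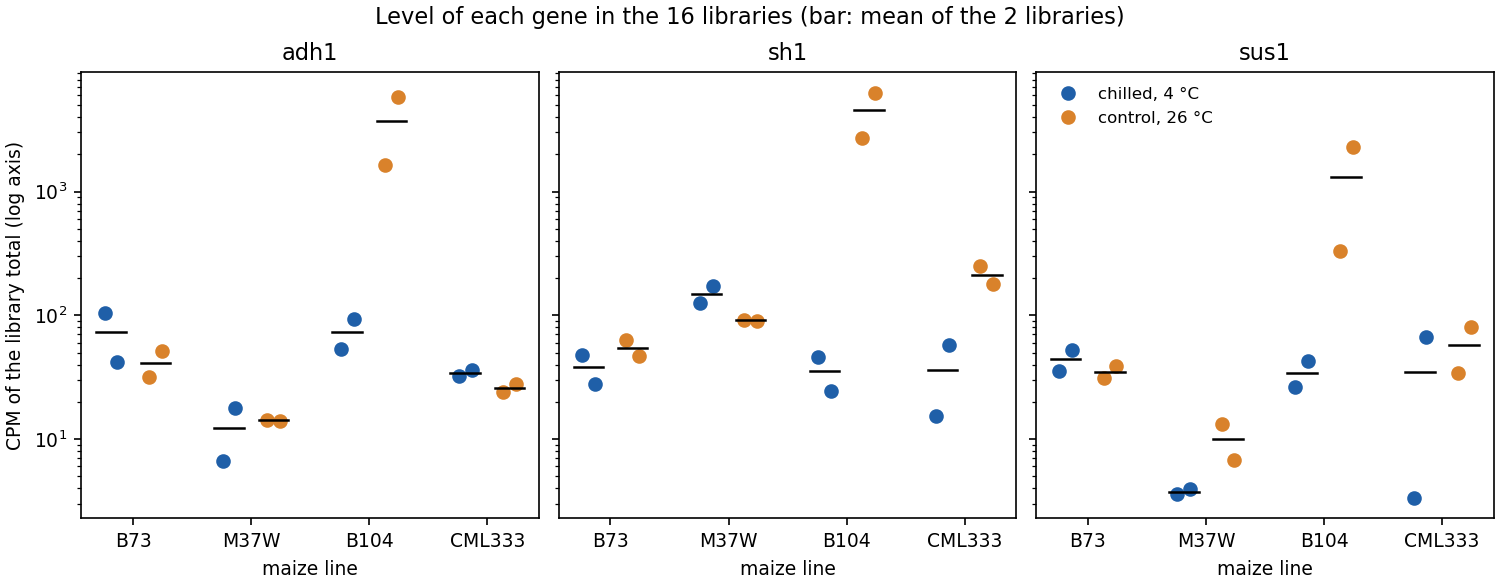
Level of adh1, sh1 and sus1 in each of the 16 libraries, as CPM on a log axis, with chilled libraries in blue left of the controls in orange for each line and a bar at the mean of the 2 libraries. The B104 controls lie above all other libraries in each panel, and M37W is lowest in the adh1 and sus1 panels except for 1 chilled CML333 library of sus1.

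These levels put the genes among the most abundant of the B104 controls. With 20304 and 20007 IDs detected in the B104 controls, adh1 ranked 51 and 11 by count there, sh1 ranked 23 and 8, and sus1 ranked 445 and 46. In chilled B104 leaves adh1 ranked 3240 and 1859, sh1 3643 and 5844, and sus1 5592 and 3882. Together the 3 genes took 0.0126% and 0.0161% of counts in chilled B104 leaves, against 0.468% and 1.44% in the B104 controls. The highest share in any library other than the B104 controls was 0.0306%, in CML333 control replicate 1. The lower of the 2 B104 controls stood at 15.7 times the highest of the other 14 libraries for adh1, at 11.0 times for sh1 and at 4.13 times for sus1.

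All 3 genes fell in chilled B104 leaves relative to these controls, by edgeR's quasi-likelihood test in a fit of all 16 libraries. On the log2 scale sh1 changed by -6.99 (SE 0.754, adjusted p 1.4e-05), adh1 by -5.67 (SE 0.766, adjusted p 6.14e-05) and sus1 by -5.29 (SE 1.14, adjusted p 0.00183). Of all genes tested in this comparison, 51.8% passed the threshold of an adjusted p under 0.05 and 24.5% fell. The calls held in each of the 16 fits that left out 1 library, although the log2 fold change of sus1 was -3.06 without B104 control replicate 2. The fall rests on control libraries whose label of leaf is in doubt, with the plastid, mitochondrial and noncoding shares given above, whose part in it was not tested. A response to chilling and what sets these libraries apart cannot be told apart. In bulk RNA, fewer cells of a type and less RNA per cell cannot be told apart.

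Outside the B104 controls the genes were moderately expressed. Over the other 14 libraries adh1 ranged from 6.65 to 103.7 CPM with a median of 32.0, sh1 from 15.4 to 247.9 CPM with a median of 60.1, and sus1 from 3.36 to 80.5 CPM with a median of 32.5. Counting error is wide at the low end: the 7 reads of sus1 in CML333 chilled replicate 1 allow 1.35 to 6.93 CPM (exact 95% binomial interval, which covers counting error only).

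None of the 3 genes passed the threshold between chilled and control B73 leaves in edgeR's fit of all 16 libraries. For adh1 the level was 103.7 and 42.1 CPM in chilled B73 leaves, against 31.8 and 51.1 CPM in the controls. Only chilled replicate 1 was above both controls, so the groups overlapped. For sh1 it was 47.9 and 28.1 CPM in chilled leaves, against 62.7 and 47.0 CPM in the controls, and for sus1 it was 35.5 and 52.8 CPM against 31.0 and 39.1 CPM. These groups overlapped as well.

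The log2 fold changes in B73 in edgeR's fit of all 16 libraries were 1.07 for adh1 (SE 0.645, adjusted p 0.356), -0.25 for sh1 (SE 0.594, adjusted p 0.861) and 0.61 for sus1 (SE 0.976, adjusted p 0.765). There 3.46% of all genes tested passed. The spread of a gene is shared over all groups of a fit, so these SEs also take in the B104 and CML333 libraries. A fit of the 8 B73 and M37W libraries, without those that stood apart, passed 27.8% of genes in B73. The adjusted p was 0.0679 for adh1 (log2 fold change 1.08, SE 0.413), 0.554 for sh1 and 0.184 for sus1 in that edgeR fit. The value for adh1 rests on chilled replicate 1, since without it the log2 fold change was 0.34 (edgeR adjusted p 0.625), while 4 of the 8 fits that left out 1 library called it.

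In M37W the chilled levels of the 2 sucrose synthase genes lay on opposite sides of their controls. The sh1 level was 125.4 and 172.0 CPM in chilled M37W leaves, against 91.4 and 90.2 CPM in the controls. The sus1 level was 3.58 and 3.94 CPM in chilled leaves, against 13.3 and 6.80 CPM in the controls. Chilled and control libraries did not overlap for either gene, nor for 59.9% of all genes tested. For adh1 the level was 6.65 and 17.7 CPM in chilled leaves, against 14.3 and 14.1 CPM in the controls, and the chilled libraries lay on either side of the controls.

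None of these differences passed in the fit of all 16 libraries, in which 0.408% of genes passed in M37W. There the log2 fold change was 0.77 for sh1 (SE 0.588, edgeR adjusted p 0.572), -1.34 for sus1 (SE 1.18, adjusted p 0.631) and -0.16 for adh1 (SE 0.691, adjusted p 0.968). With edgeR and the 8 libraries of both lines, where 18.9% of genes passed in M37W, sh1 had an adjusted p of 0.0523 (SE 0.262), sus1 of 0.0693 (SE 0.495) and adh1 of 0.879. The M37W libraries alone gave sh1 an edgeR adjusted p of 0.00236 (log2 fold change 0.79, SE 0.186), in a fit that called 31.8% of genes. It was also called in the 4 fits of both lines that left out 1 B73 library, which called 21.9%, 21.8%, 19.0% and 18.5% of genes. In the fits of both lines that left out 1 M37W library, sh1 was not called. Over all 8 fits of both lines without 1 library its log2 fold change ran from 0.54 to 0.96. The sus1 level of chilled M37W rests on 7 and 8 reads.

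**Figure D2:**
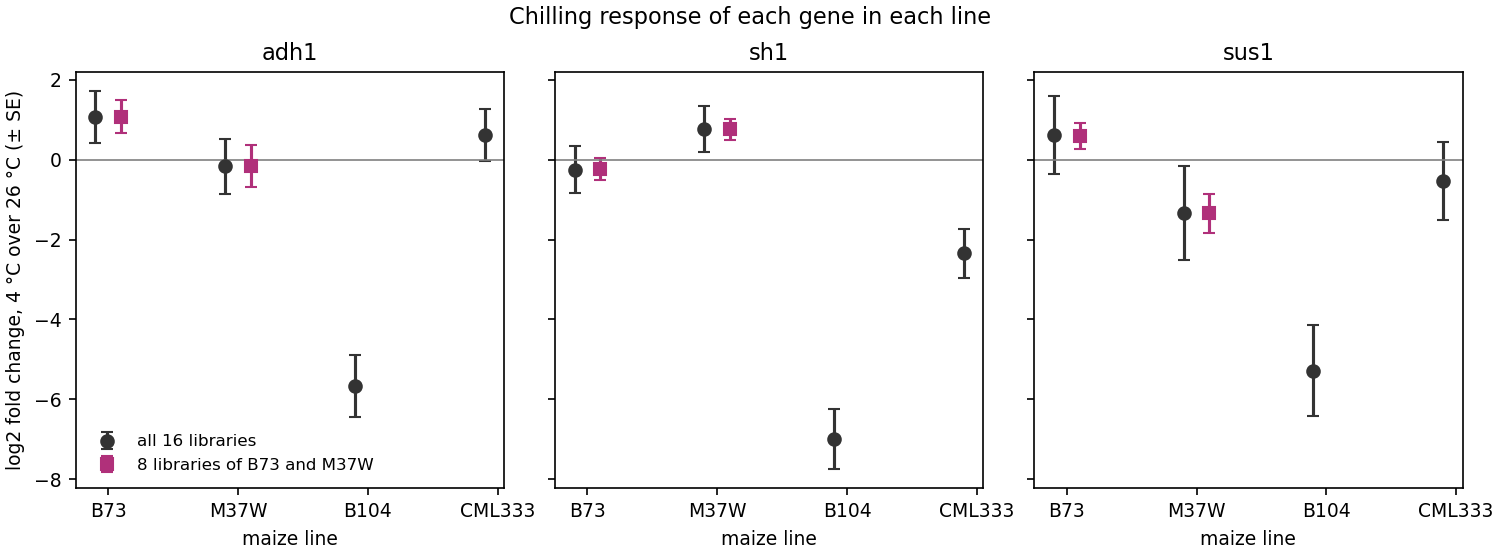
Log2 fold change of chilled over control leaves with its SE for adh1, sh1 and sus1 in each line, from edgeR's fit of all 16 libraries (circles) and of the 8 libraries of B73 and M37W (squares). The B104 values, which rest on the controls that stood apart, lie between -5.29 and -6.99, and in B73 and M37W the 2 fits give nearly the same value with a shorter bar in the smaller fit.

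In the libraries labelled CML333, sh1 was the gene that differed. Its level was 15.4 and 57.5 CPM in chilled leaves, against 247.9 and 178.9 CPM in the controls, with no overlap, as for 52.2% of all genes. In edgeR's fit of all 16 libraries sh1 fell (log2 fold change -2.34, SE 0.616, adjusted p 0.0208), where 15.4% of all genes passed and 5.36% fell. Without the B104 controls the adjusted p was 0.0079 (log2 fold change -2.38), where 7.57% of genes fell. The call was lost when CML333 chilled replicate 1 (log2 fold change -1.76, edgeR adjusted p 0.103), control replicate 1 (adjusted p 0.111) or control replicate 2 (adjusted p 0.0663) was left out.

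The other genes did not pass in CML333. The sus1 level was 3.36 and 66.2 CPM in chilled leaves, against 34.1 and 80.5 CPM in the controls. The 2 chilled libraries differed by more than the group means did, as in the correlation above, and the log2 fold change of -0.54 (SE 0.971, edgeR adjusted p 0.777) became -3.83 (adjusted p 0.0332) without chilled replicate 2 and 0.33 (adjusted p 0.915) without chilled replicate 1. For adh1 the level was 32.2 and 35.9 CPM in chilled leaves, against 24.1 and 27.7 CPM in the controls. Those groups did not overlap, yet the log2 fold change of 0.63 (SE 0.654) missed the threshold in edgeR's test (adjusted p 0.583).

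Averaged over B73 and M37W, where no library stood apart, the chilling response passed the threshold for none of the 3 genes in either edgeR fit. With edgeR on these 8 libraries the mean log2 fold change was 0.46 for adh1 (SE 0.333, adjusted p 0.335), 0.26 for sh1 (SE 0.191, adjusted p 0.334) and -0.37 for sus1 (SE 0.297, adjusted p 0.382), whereas 29.1% of all genes passed. The fit of all 16 libraries gave 0.46, 0.26 and -0.36 for adh1, sh1 and sus1 (adjusted p 0.618, 0.778 and 0.845), with 7.73% of genes past the threshold.

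The chilling responses of the lines were then set against each other. Tested for any difference among the 4 responses with edgeR, adh1 (adjusted p 0.000717), sh1 (0.000223) and sus1 (0.0277) passed, as did 35.3% of all genes. The sus1 call was lost in 8 of the 16 fits that left out 1 library, with the highest adjusted p without B104 control replicate 2 (0.174), chilled B104 replicate 1 (0.143) or chilled B104 replicate 2 (0.106). In the other 5 it lay between 0.0508 and 0.0644, without B73 control replicate 1 or 2, chilled B73 replicate 2, or chilled M37W replicate 1 or 2. Without the B104 controls, and so over the responses of B73, M37W and CML333, sh1 passed (adjusted p 0.0284) while adh1 (0.472) and sus1 (0.556) did not, against 9.85% of all genes. The sh1 response was -0.21 in B73, 0.84 in M37W and -2.38 in CML333 on the log2 scale in that fit.

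Between B73 and M37W the responses differed for sus1 in the fit of their 8 libraries. The difference, B73 minus M37W, was 1.94 on the log2 scale (SE 0.593, edgeR adjusted p 0.047), made of 0.60 in B73 and -1.34 in M37W. It was -1.0 for sh1 (SE 0.381, adjusted p 0.108) and 1.24 for adh1 (SE 0.664, adjusted p 0.27), with 10.1% of all genes past the threshold. The sus1 call lies at the threshold: it was lost in 5 of the 8 fits that left out 1 library (without B73 control replicate 1, chilled B73 replicate 2, M37W control replicate 1, chilled M37W replicate 1 or chilled M37W replicate 2, with an edgeR adjusted p of 0.0824 to 0.26), and the fit of all 16 libraries gave 1.95 (SE 1.53, adjusted p 0.701), where 0.00574% of genes passed.

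Outside the B104 controls, B73 and M37W were also compared with each other. At 4 °C adh1 stood at 103.7 and 42.1 CPM in B73 and at 6.65 and 17.7 CPM in M37W. For sus1 chilled B73 had 35.5 and 52.8 CPM and chilled M37W 3.58 and 3.94 CPM. The order was the opposite for sh1, with 47.9 and 28.1 CPM in chilled B73 and 125.4 and 172.0 CPM in chilled M37W. The lines did not overlap in any of the 3 genes, nor in 64.6% of all genes tested.

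At 26 °C the same order was seen. For adh1 the controls had 31.8 and 51.1 CPM in B73 and 14.3 and 14.1 CPM in M37W, and for sus1 31.0 and 39.1 CPM in B73 and 13.3 and 6.80 CPM in M37W. For sh1 they had 62.7 and 47.0 CPM in B73 and 91.4 and 90.2 CPM in M37W. No library of B73 overlapped one of M37W for these genes, nor for 61.2% of all genes tested.

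With edgeR on the 8 libraries all 3 genes passed at both temperatures. At 4 °C the log2 fold change of B73 over M37W was 3.58 for sus1 (SE 0.433, adjusted p 1.22e-05), 2.62 for adh1 (SE 0.471, adjusted p 0.000817) and -1.91 for sh1 (SE 0.276, adjusted p 6.76e-05), and 31.8% of all genes passed. These calls held in each of the 8 fits that left out 1 library. At 26 °C the edgeR values were 1.64 for sus1 (SE 0.372, adjusted p 0.00322), 1.38 for adh1 (SE 0.463, adjusted p 0.0378) and -0.91 for sh1 (SE 0.268, adjusted p 0.0172), with 29.8% of genes past the threshold.

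The control difference was less firm. Without B73 control replicate 2 the adjusted p in edgeR was 0.232 for adh1 and 0.0678 for sh1. Without M37W control replicate 1 it was 0.163 for adh1 and 0.0799 for sh1, and without M37W control replicate 2 it was 0.178 for adh1, 0.086 for sh1 and 0.0714 for sus1. In the fit of all 16 libraries, only adh1 at 4 °C passed (log2 fold change 2.61, SE 0.695, adjusted p 0.0271), while sh1 (-1.92, adjusted p 0.0577) and sus1 (3.59, adjusted p 0.0647) missed the threshold, which 11.1% of genes passed at 4 °C. That adh1 call was lost without B73 chilled replicate 1 (1.87, edgeR adjusted p 0.217), M37W chilled replicate 1 (2.07, adjusted p 0.246) or M37W chilled replicate 2 (3.45, adjusted p 0.0775). At 26 °C 9.48% of all genes passed in that fit, and the adjusted p was 0.236 for adh1, 0.394 for sh1 and 0.379 for sus1.

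**Figure D3:**
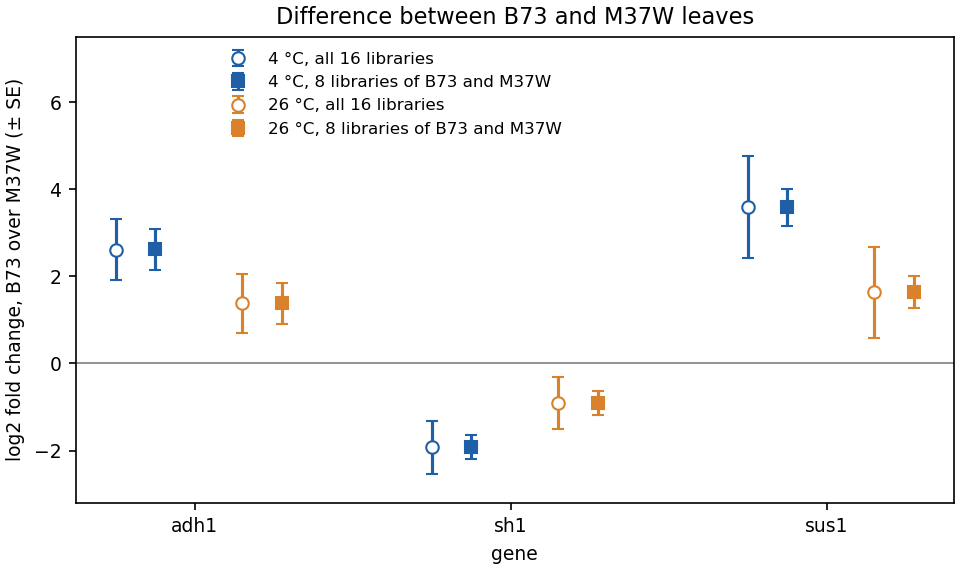
Log2 fold change of B73 over M37W with its SE for each gene at 4 °C (blue) and 26 °C (orange), from edgeR's fits of all 16 libraries (open circles) and of the 8 libraries of B73 and M37W (filled squares). Values above 0 mean more in B73, as for adh1 and sus1, and values below 0 mean more in M37W, as for sh1.

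Over all 8 groups the levels of each gene ran in a different order. For adh1 the order of the group means was the B104 control (3717 ± 2952 CPM), chilled B104 (73.6 ± 28.9), chilled B73 (72.9 ± 43.5), the B73 control (41.4 ± 13.7), chilled CML333 (34.0 ± 2.61), the CML333 control (25.9 ± 2.60), the M37W control (14.2 ± 0.192) and chilled M37W (12.2 ± 7.84 CPM; SD, n = 2 each). Neighbours overlapped from chilled B104 down to chilled CML333, and the 2 M37W groups overlapped. The steps below the B104 control, below chilled CML333 and below the CML333 control were free of overlap. In the pairs of groups counted above, 52.2% to 71.1% of all genes tested were also free of overlap. The share was not counted for every pair of neighbours here or below, so these steps only describe the order.

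For sh1 the B104 control (4517 ± 2540 CPM) was followed by the CML333 control (213.4 ± 48.9), chilled M37W (148.7 ± 33.0), the M37W control (90.8 ± 0.826), the B73 control (54.8 ± 11.2), chilled B73 (38.0 ± 14.0), chilled CML333 (36.5 ± 29.8) and chilled B104 (35.4 ± 15.4 CPM; SD, n = 2 each). Each of the first 4 groups was clear of the next, and the last 4 overlapped their neighbours. On the scale of the trimmed mean of M-values the order of the last 3 changed, with chilled B104 sixth.

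For sus1 the B104 control (1315 ± 1389 CPM) was followed by the CML333 control (57.3 ± 32.8), chilled B73 (44.2 ± 12.2), the B73 control (35.1 ± 5.76), chilled CML333 (34.8 ± 44.4), chilled B104 (34.4 ± 11.3), the M37W control (10.1 ± 4.62) and chilled M37W (3.76 ± 0.255 CPM; SD, n = 2 each). The B73 control and chilled B104 exchanged places on that other scale. The groups from the CML333 control to chilled B104 overlapped their neighbours. The B104 control and both M37W groups were clear of their neighbours, with M37W at the low end.

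Lines were also tested against each other within a temperature. Among the 4 control groups all 3 genes differed in edgeR's fit of all 16 libraries (adjusted p 1.21e-06 for adh1, 2.77e-06 for sh1 and 0.000134 for sus1), as did 63.0% of all genes. Without the B104 controls sh1 still differed (adjusted p 0.0189), whereas adh1 (0.126) and sus1 (0.141) missed the threshold that 29.8% of genes passed. Among the 4 chilled groups, adh1 (adjusted p 0.0337) and sh1 (0.0302) differed and sus1 (0.137) missed the threshold, with 22.6% of genes past it. Leaving out 1 library took away the call of adh1 in 8 of 16 fits, up to an adjusted p of 0.196 without chilled M37W replicate 1, and that of sh1 in 5 of 16, up to 0.223 without chilled M37W replicate 2. For adh1 the other 7 were chilled M37W replicate 2, both M37W controls, chilled B73 replicate 1, chilled B104 replicate 2 and both CML333 controls, and for sh1 the other 4 were chilled M37W replicate 1, both M37W controls and chilled B73 replicate 2. Without chilled CML333 replicate 1 or replicate 2 sus1 was called in edgeR. Such a fit leaves 1 library in that group, and the share of 22.6% does not apply to it. Without the B104 controls the edgeR adjusted p among the 4 chilled groups was 0.00751 for adh1, 0.00907 for sh1 and 0.0894 for sus1, and 28.9% of genes passed. In the edgeR fit with neither the B104 controls nor CML333, the chilled groups of B73, B104 and M37W differed in adh1 (adjusted p 0.00393), sh1 (0.000375) and sus1 (0.000155), with 32.4% of all genes past the threshold.

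The balance of the sucrose synthase transcripts was followed as the share of sh1 in the reads of sh1 and sus1 together, a ratio within the library that no scaling changes. In M37W this share was 97.2% (95% Wilson interval 94.4% to 98.6%) and 97.8% (95.6% to 98.9%) in chilled leaves, against 87.3% (82.1% to 91.1%) and 93.0% (88.8% to 95.7%) in the controls. In B73 it was 57.4% (50.5% to 64.0%) and 34.7% (27.4% to 42.8%) in chilled leaves, against 66.9% (60.8% to 72.6%) and 54.5% (47.8% to 61.2%) in the controls. Of the reads counted for these genes, nearly all in M37W were thus sh1 reads, while B73 divided them more evenly. The IDs have the form of B73 gene models, and whether M37W reads match these as well as B73 reads do was not tested.

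In B104 the share was 63.7% (55.9% to 70.8%) and 36.7% (29.4% to 44.6%) in chilled leaves, against 89.1% (88.4% to 89.8%) and 73.3% (72.7% to 73.9%) in the controls. In CML333 it was 82.1% (67.3% to 91.0%) and 46.5% (40.8% to 52.3%) in chilled leaves, against 87.9% (85.2% to 90.2%) and 69.0% (65.1% to 72.6%) in the controls. Chilled and control libraries overlapped in B73 and CML333 but not in B104 or M37W. Replicates of 1 group often lay outside each other's intervals, which cover counting error only.

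The difference of the mean shares, chilled minus control, was -31.0 percentage points in B104, -14.7 in B73, -14.2 in CML333 and 7.36 in M37W. Single libraries moved these values. In CML333 the difference was 3.62 without chilled replicate 2 and -31.9 without chilled replicate 1. Leaving out a CML333 control gave -4.69 (replicate 1) and -23.6 (replicate 2). In B73 it was -3.32 without chilled replicate 2, -26.0 without chilled replicate 1 and -8.47 without control replicate 1. In B104 it was -17.5 without chilled replicate 2, and in M37W it was 4.5 without control replicate 1. The mean of these differences over the 4 lines was -13.1 points, which an exact permutation test within lines did not separate from 0 (two-sided p = 0.108 over 1296 arrangements, the smallest possible p being 0.00154). The mean was -8.68 without chilled CML333 replicate 2 and -7.16 without the line B104 (exact two-sided p = 0.256 and 0.407). With B73 and M37W alone the mean was -3.65 points (exact two-sided p = 0.833, where no p below 0.0556 is possible).

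**Figure D4:**
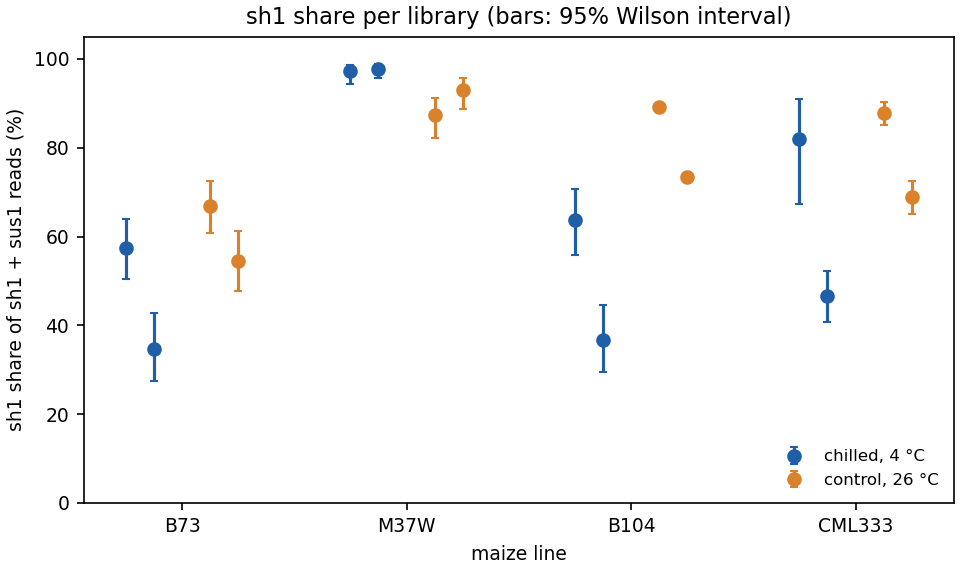
Share of sh1 in the reads of sh1 and sus1 together, in percent, for each library with its 95% Wilson interval, chilled libraries in blue left of the controls in orange. The 4 M37W libraries lie between 87.3% and 97.8%, and the 4 B73 libraries between 34.7% and 66.9%.

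With the B104 controls left aside, adh1 and sus1 were nearer to each other by root mean square distance than either was to sh1. Likeness was measured as the root mean square difference of log2(CPM + 1), each gene centred on its own mean, over the 14 other libraries and 16856 genes. It was 1.13 between adh1 and sus1, which placed adh1 at rank 373 among the genes most like sus1 and sus1 at rank 5192 among those most like adh1. The median distance to all genes was 1.25 from adh1 and 1.56 from sus1, both above that value. It was 1.88 between adh1 and sh1 and 1.86 between sh1 and sus1, against a median of 1.22 from sh1 to all genes. The nearest gene was Zm00001d017120 for adh1 (0.445), Zm00001d017347 for sh1 (0.373) and Zm00001d033558 for sus1 (0.539), none of which the sources used here pair with a name. These libraries share their lines and temperatures, so the distances are a description.

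The values of the nearest genes describe the choice, which used these B73 and M37W libraries. Zm00001d017120, nearest to adh1, had 158.9 ± 30.0 CPM in chilled and 115.9 ± 34.7 CPM in control B73 leaves, and 37.9 ± 0.0549 CPM in chilled and 32.9 ± 3.0 CPM in control M37W leaves (SD, n = 2 each). In the B104 controls, which the measure did not use, it stood at 599.9 and 899.2 CPM, against 133.2 and 171.3 CPM in chilled B104. Zm00001d017347, nearest to sh1, had 38.9 ± 2.10 CPM in chilled and 34.7 ± 1.57 CPM in control M37W leaves, and 6.60 ± 0.597 CPM in chilled and 17.2 ± 5.74 CPM in control B73 leaves. It had 9.25 and 6.69 CPM in chilled B104 leaves and 2.59 and 2.65 CPM in the B104 controls, where sh1 was at its highest. Zm00001d033558, nearest to sus1, had 6.96 ± 0.490 CPM in chilled and 3.41 ± 0.996 CPM in control B73 leaves, and 0.246 ± 0.349 CPM in chilled and 0.474 ± 0.0287 CPM in control M37W leaves. It had 3.7 and 2.68 CPM in chilled B104 leaves, against 10.3 and 10.6 CPM in the B104 controls. The M37W values of Zm00001d033558 lie below the level of 3 reads, which is 1.36 to 1.54 CPM in those libraries. Its likeness to sus1 thus rests in part on very low counts.

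The other genes of fermentation and sucrose breakdown could not be set beside these. Of 25 symbols listed for fermentation, sucrose cleavage and synthesis, low-oxygen glycolysis and oxygen binding, 20 were in the RefSeq table, but 0 could be paired with a counted ID. They were not analysed here.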

How the data were processed

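Per library the authors deposited raw, unscaled read counts, 1 whole number for each gene ID. Libraries were made with a QuantSeq 3′ forward kit, per the labels' protocols, and STAR and edgeR are named in the submitters' processing notes. The sources used here state no genome build, annotation or counting rule, and only the form of the nuclear IDs points to gene models of B73. The authors' 4 scaled tables of the same libraries were not used here.

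The analysis ran in R 4.3.3 with edgeR 4.0.16: filterByExpr with the groups, TMM scaling (the trimmed mean of M-values), and 1 quasi-likelihood fit of all 16 libraries with 8 group means (estimateDisp, robust glmQLFit, glmQLFTest). P-values are two-sided and adjusted by Benjamini-Hochberg over all genes tested, with calls under 0.05. The SE is the log2 fold change divided by the root of the F statistic. The fit was tested on simulated data.

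Alternatives were a fit of the 8 B73 and M37W libraries, each line alone, DESeq2 1.42.0, limma 3.58.1 with voom, other size factors, no filter, replicate blocks and each library left out. Fits without the B104 controls, the fit without these and CML333, the 8-library fits with a block or a library left out, and the share without B104 or without CML333 were chosen after seeing the data. The fit of the 8 B73 and M37W libraries was planned, but because the B104 and CML333 libraries had stood apart in earlier work on these data. The members and lists were chosen with earlier results of these data known. The genes named besides the members are the nearest to each by the root mean square difference, with a mean of at least 1 CPM. No sequence is shown.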

Additional observations from a re-analysis of the deposited data

Results flagged for a closer look

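The chilling responses differed between lines by a test of the difference itself in these cases. In edgeR's fit of all 16 libraries any difference among the 4 responses had an adjusted p of 0.000717 for adh1, 0.000223 for sh1 and 0.0277 for sus1, in a test that 35.3% of all genes passed, and the sus1 call was lost in 8 of 16 fits without 1 library. Without the B104 controls the edgeR adjusted p was 0.472 for adh1, 0.0284 for sh1 and 0.556 for sus1, with 9.85% of genes past the threshold. The sh1 responses there were -0.21 in B73, 0.84 in M37W and -2.38 in CML333, whose chilled replicates correlated at 0.813. That fit was not repeated with 1 library left out. Between B73 and M37W alone, the sh1 responses did not differ past the threshold (edgeR adjusted p 0.108). In the fit of the 8 libraries of B73 and M37W, the sus1 response of B73 minus that of M37W had an edgeR adjusted p of 0.047 (1.94 on the log2 scale, SE 0.593), from 0.60 in B73 and -1.34 in M37W, where 10.1% of genes passed. That call was lost in 5 of 8 fits without 1 library, and the fit of all 16 libraries gave 0.701. The part of the shares of plastid, mitochondrial and noncoding RNA reads, which set the B104 controls apart, was not tested.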

How the results depend on the processing

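The falls of adh1, sh1 and sus1 in B104, and the difference of each gene among the 4 control groups, kept their direction and call in each alternative that kept the B104 controls. The log2 fold change of sh1 in CML333 lost its call with the CML333 libraries alone (-2.36) and with a replicate block by the number in the description (-2.35), and ran from -3.54 to -1.76 when 1 library was left out. In M37W sh1 was called with its libraries alone (0.79), in a fit that called 31.8% of genes.

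Between B73 and M37W, without B104 and CML333, calls were gained by the sus1 difference of responses (1.94), by adh1 (1.38), sh1 (-0.91) and sus1 (1.64) at 26 °C, and by sh1 (-1.91) and sus1 (3.58) at 4 °C. Of all genes, 10.1% passed for the difference of responses in that fit, 29.8% at 26 °C and 31.8% at 4 °C. At 26 °C sus1 was also called with no filter (1.64) and without the B104 controls and CML333 (1.64). Those fits called 2530 of 28431 and 3656 of 15636 genes, against 1650 of 17410 in the fit of all 16 libraries. At 4 °C sh1 was called with no filter (-1.92), DESeq2 (-1.91), voom (-1.93), without the B104 controls (-1.97), and without these and CML333 (-1.92). At 4 °C sus1 was called with no filter (3.58), DESeq2 (3.62), a replicate block by title number (3.59) or description number (4.26), without the B104 controls (3.53), and without these and CML333 (3.58). The fit of all 16 libraries called 1924 of 17410 genes at 4 °C, DESeq2 2181, voom 2188, and the title and description blocks 1899 and 1355. With no filter 2809 of 28431 were called, without the B104 controls 2481 of 16383, and without these and CML333 4027 of 15636.

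Without the B104 controls, adh1 and sus1 lost the test among responses (adjusted p 0.472 and 0.556) and among controls (0.126 and 0.141). Among chilled groups, sh1 lost its call with the description block (edgeR adjusted p 0.111). A call of sus1 was gained with no filter (edgeR adjusted p 6.3e-07), DESeq2 (0.0342), the description block (edgeR 0.0473), and without the B104 controls and CML333 (edgeR 0.000155). In that order 5914 of 28431, 4593 of 17410, 3175 of 17410 and 5068 of 15636 genes were called, against 3926 of 17410 in the fit of all 16 libraries.

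With 1 library left out, log2 fold changes ran from -0.64 to 0.031 for sh1 in B73, from -3.83 to 0.33 for sus1 in CML333 and from -1.01 to 0.37 for adh1 in M37W. At 4 °C, B73 over M37W ran from 1.87 to 3.45 for adh1, -2.31 to -1.64 for sh1 and 3.21 to 3.88 for sus1. The adjusted p ran from 0.00179 to 0.174 for sus1 among responses, and among chilled groups from 0.00707 to 0.196 for adh1, 0.00265 to 0.223 for sh1 and 0.0141 to 0.447 for sus1. Without B104 and CML333 the ranges were -0.63 to 0.042 for sh1 in B73 and -1.02 to 0.36 for adh1 in M37W. The causes were not tested. Over the alternatives that left out no single library the number of genes called ran from 180 to 4212 in B73 (602 in the fit of all 16 libraries). It ran from 71, in the fit of all 16 libraries, to 4218 in M37W, and from 387 to 3634 in CML333 (2677). Between B73 and M37W it ran from 1114 to 4515 at 26 °C (1650) and from 1355 to 4827 at 4 °C (1924).

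Deviations from the group mean of libraries with the same title number correlated at -0.0382 in B73, 0.038 in B104, 0.103 in CML333 and 0.0925 in M37W. These values cannot settle whether title numbers pair the samples, since pairing need not leave a shared deviation over all genes. In the fit of B73 and M37W a replicate block by title number left sus1 with an adjusted p of 0.0608 for the difference of responses and adh1 with 0.0505 at 26 °C. Depth limits sus1 in chilled M37W and in chilled CML333 replicate 1, with 7 or 8 reads a library.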
